A study of Mus musculus with 22 samples.

Results

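The AGM (aorta, gonad and mesonephros) of the mid-gestation mouse embryo holds the large vessels from which the first blood stem cells arise, and its endothelium was compared here at E11 between cells with low surface CD44 and no Kit (CD44LowKitNeg) and cells without surface CD44 (CD44Neg). The comparison used the 3 CD44LowKitNeg libraries (replicates 11, 12 and 13) and the 3 CD44Neg libraries (replicates 1, 2 and 3) of E11, which the labels give the same date, out of 22 libraries in the series. All 6 came from untreated C57BL/6 embryos, and each was made by Smart-seq2, a full-length polyA method, from 25 sorted VE-Cadherin-positive cells. No source used here says whether the libraries of a group came from different embryos or litters, so the p-values measure the spread between libraries, which may be technical. Each library is a pool, so fewer cells of a type and less RNA per cell cannot be told apart.

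Arteries and veins are lined by endothelial cells with different programmes. In arterial cells, flow and VEGF act through Notch receptors, ligands such as Jag1 and Dll4 and the repressors Hey1 and Hey2, and the cells display ephrin-B2. Venous cells depend on the nuclear receptor COUP-TFII (*Nr2f2*) and carry Nrp2, Flt4 and Ephb4. Haemogenic endothelium lies in the floor of the aorta, and as its cells turn into blood they switch on *Runx1* and *Gfi1*. CD44 itself is a receptor for hyaluronan, a sugar polymer of the extracellular matrix.

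Of 11035 genes tested, 376 differed (3.41%), with 208 higher in CD44LowKitNeg (1.88%) and 168 lower (1.52%), by edgeR's quasi-likelihood test at an adjusted p under 0.01. These percentages are the background for every list below, as is the median log2 fold change of all genes tested, 0.03, where a positive value means higher in CD44LowKitNeg. In all 376 genes the 3 libraries of one population lay wholly above those of the other, which was true of 34.1% of the genes tested. The call count fell most without CD44Neg replicate 1 (101 genes) or CD44Neg replicate 2 (105 genes). The balance of the calls moved with the libraries in the fit, from 55.3% higher with these 6 libraries to 37.8% with the 16 libraries of both populations at all stages, 29.9% with all 22 libraries, and 44.0% with limma voom on these 6. Without CD44Neg replicate 1, 2 or 3 it was 70.3%, 67.6% or 66.3%.

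**Figure D1:**
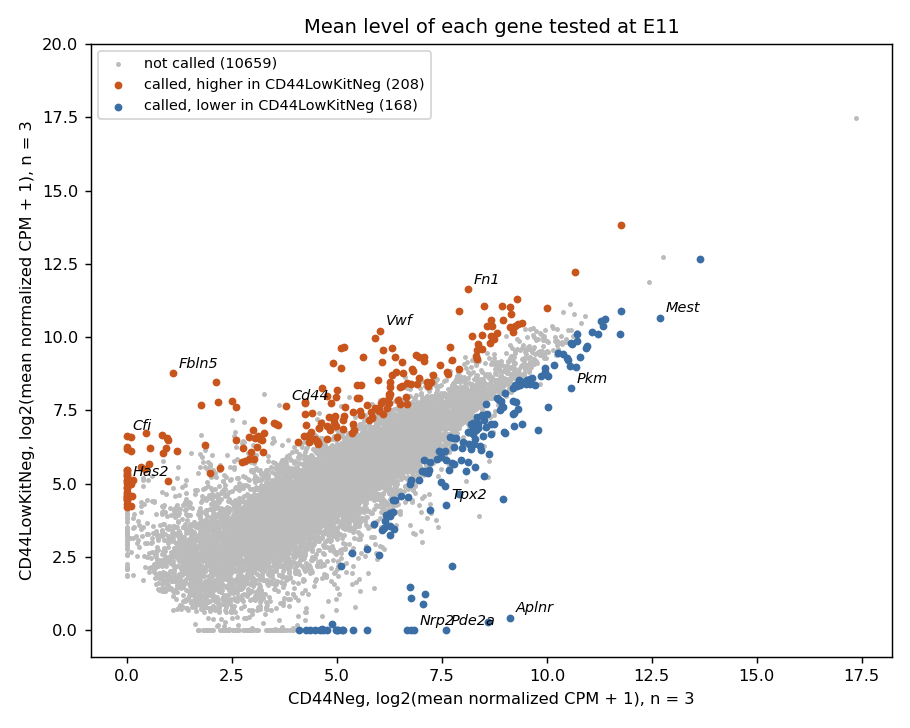
Mean level of each of the 11035 genes tested at E11, as log2 of the mean normalized CPM (counts scaled to a common library size) plus 1, in CD44Neg (x axis) and CD44LowKitNeg (y axis), with 3 libraries each. The 208 genes called higher (orange) lie above the diagonal cloud and the 168 called lower (blue) below it, and the rows of points at 0 are genes without a count in any library of one population.

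Depth ranged from 3912350 to 6652450 counts in CD44Neg and from 6323148 to 7625219 in CD44LowKitNeg, with 11868 to 11993 and 11491 to 11723 genes detected. *Rn45s*, the ribosomal RNA precursor, took 15.2 to 19.2% of the counts of each library. Every library lay nearest to one of its own population, at distances of 126.7 to 134.3 within CD44Neg, 165.5 to 173.3 within CD44LowKitNeg and 190.6 to 208.3 between them (Euclidean distance over log2 CPM). All expression levels below are normalized CPM, given in the order of replicates 1, 2 and 3 for CD44Neg and 11, 12 and 13 for CD44LowKitNeg, and a count of 3 in a library corresponds to 0.398 to 0.781 CPM.

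The markers used in the sort were read first, as a check of the labels and not as a result. *Cd44* was at 14.3, 2.12 and 21.5 CPM in CD44Neg and at 184, 162 and 259 in CD44LowKitNeg, and the groups did not overlap. *Cdh5*, which codes for VE-Cadherin, was at 252, 363 and 434 against 857, 1187 and 1192. *Kit* transcripts were present in both populations, at 52.9, 65.2 and 81.9 against 59.5, 53.3 and 45.9, and these ranges overlapped. Both populations carried endothelial genes, as labelled: *Pecam1*, a junction protein of all endothelium, was at 1077, 1108 and 1195 in CD44Neg and at 1541, 1163 and 1066 in CD44LowKitNeg.

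Markers of other cell types were mostly low, with exceptions in CD44LowKitNeg. Of the 12 macrophage markers 9 had no count in any of the 6 libraries, *Csf1r* and *Adgre1* among them, and their summed level was 7.18 to 19.5 CPM in CD44Neg and 0 to 10.2 in CD44LowKitNeg. The 5 markers of myeloid progenitors were at 0 throughout. Summed levels were higher in CD44LowKitNeg for erythroid markers (33.2 to 62.9 against 8.33 to 23.5, 5 of 10 at 0 in all libraries) and for mesenchyme markers (30 to 118 against 0.458 to 16.9, 3 of 11 at 0). Mural markers reached 7.69 to 51.2 CPM against 7.12 to 29.4, with 1 of 8 at 0 throughout, and neural markers 0 to 6.89 against 0.521 to 3.85, with 3 of 7 at 0. Epithelial markers summed to 28.1 to 89.8 CPM against 0 to 2.12, nearly all of it *Krt18*, while *Epcam* and *Cdh1* were at 0. *Krt18* was at 0.521, 1.92 and 0 CPM against 79.2, 24.7 and 89.8 and passed the test (log2 fold change 6.30 ± 1.01 SE, edgeR adjusted p = 0.00578), but not by voom (0.147) or when any library but CD44LowKitNeg replicate 12 was left out (0.012 to 0.0381). The part these cells had in the differences below was not tested. *Xist*, the RNA of the inactive X chromosome, was at 458, 331 and 555 CPM against 1135, 1256 and 1032 (log2 fold change 1.35 ± 0.20 SE, edgeR adjusted p = 0.00367), a call lost with all 22 libraries in the fit (0.0917), with 16 (0.0457) and when any library but CD44Neg replicate 3 was left out. The 4 Y-linked transcripts of the list did not pass (*Ddx3y* 0.74, *Eif2s3y* 0.42, *Uty* 0.98 and *Kdm5d* -0.07 on the log2 scale). The sex of the embryos is not in the labels, and its part in the differences was not tested.

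Several pan-endothelial genes rose in CD44LowKitNeg. Of 22 pan-endothelial genes 7 rose, 1 fell and 14 did not pass the test, with a median log2 fold change of 0.56 in the list. *Cdh5*, a marker of the sort, is 1 of the 7 and is no finding. *Vwf*, which codes for the platelet-binding von Willebrand factor, was at 54.7, 40.2 and 97.3 CPM in CD44Neg and at 1148, 1160 and 1253 in CD44LowKitNeg. This was a rise of 18.5-fold (log2 fold change 4.21 ± 0.31 SE, edgeR adjusted p = 1.7e-04), and the 3 libraries of each population lay close together beside the gap. *Tek*, the angiopoietin receptor, rose from 337, 441 and 437 CPM to 1562, 1350 and 1648 (log2 fold change 1.91 ± 0.16, adjusted p = 2.7e-04). *Ramp2*, a partner of the adrenomedullin receptor, rose from 539, 489 and 662 to 1693, 1863 and 1772 (adjusted p = 3.6e-04). *Cd34*, *Mmrn2* and *Clec14a*, which code for glycoproteins of endothelium, were higher by 0.98, 1.49 and 1.83 on the log2 scale. The member that fell was *Ets1*, an ETS transcription factor, from 321, 259 and 334 CPM to 90.1, 88.0 and 67.5 (log2 fold change -1.90 ± 0.21, adjusted p = 9.9e-04). The related factors *Erg* and *Fli1* had log2 fold changes of 0.51 and 0.33 and did not pass the test. Without CD44Neg replicate 2 the number of members that rose was 3, and *Ets1* was called in every alternative.

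Arterial genes were the largest share of a vessel list to rise, 8 of 14 tested, with none lower and a median log2 fold change of 2.01. *Fbln5*, which codes for the elastic fibre protein fibulin-5, was at 0, 2.31 and 1.07 CPM in CD44Neg and at 304, 505 and 495 in CD44LowKitNeg (log2 fold change 8.48 ± 0.58, edgeR adjusted p = 1.2e-04). The gap junction gene *Gja4* rose from 503, 634 and 533 to 2431, 1951 and 1857 CPM (adjusted p = 2.6e-04). Its arterial relative *Gja5* was at 47.4, 105 and 93.5 against 961, 479 and 491 (log2 fold change 2.97 ± 0.37, adjusted p = 0.00206). In each of the 3 genes the CD44LowKitNeg libraries lay well above all CD44Neg libraries. *Efnb2*, the gene of ephrin-B2, rose 4.37-fold, from 78.9, 95.4 and 153 to 377, 472 and 582 CPM. *Tmem100*, a membrane protein downstream of ALK1 signalling, was 23.9-fold higher, although CD44Neg libraries spread from 6.73 to 73.5 CPM. *Nrp1*, *Vegfc* and *Mecom* completed the 8. Among members that did not pass were *Bmx* (0, 25.2 and 0.611 CPM against 234, 251 and 311, adjusted p = 0.0288) and *Sox17* (190, 136 and 168 against 334, 270 and 279, adjusted p = 0.0263). In neither gene did the groups overlap, and in *Bmx* CD44Neg replicate 2 stood apart from the others. *Sox17* was called by DESeq2's Wald test, and *Bmx* without CD44Neg replicate 2, with no filter and with the 16 endothelial libraries. Without CD44LowKitNeg replicate 13 the count of arterial genes that rose was 3, the lowest of any library left out, and with all 22 libraries in the fit it was 5. *Fbln5* was not called by limma voom (adjusted p = 0.032).

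Venous genes ran the other way in part. Of 9 tested, 4 fell and none rose, and the median log2 fold change was -1.84. *Aplnr*, the apelin receptor, was at 699, 626 and 342 CPM in CD44Neg and at 0, 1.06 and 0 in CD44LowKitNeg (log2 fold change -10.45 ± 0.73, edgeR adjusted p = 1.3e-04). *Nrp2*, a co-receptor for semaphorins and VEGF-C, was at 111, 98.5 and 129 in CD44Neg and had no count in any CD44LowKitNeg library, at least 263-fold lower against a floor of 3 counts per library (adjusted p = 1.4e-04). *Nr2f2* fell from 88.3, 113 and 113 to 3.17, 2.12 and 0.16 CPM (log2 fold change -5.81 ± 0.69, adjusted p = 0.00166). These 3 genes were thus at or near 0 in CD44LowKitNeg. *Flt4*, the VEGF-C receptor, fell only 3.59-fold, from 358, 340 and 359 to 99.0, 81.2 and 115. *Ephb4*, the receptor for ephrin-B2, was at 89.3, 130 and 111 CPM against 108, 94.1 and 88.9, and *Emcn*, which codes for endomucin, at 1487, 1037 and 1083 against 955, 1076 and 741. Neither passed the test, and both overlapped between the groups. Without CD44Neg replicate 2 the count was 3. By limma voom *Aplnr* (adjusted p = 0.0393) and *Nr2f2* (0.0123) were not called, and with all 22 libraries in the fit *Flt4* (0.0569) was not.

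**Figure D2:**
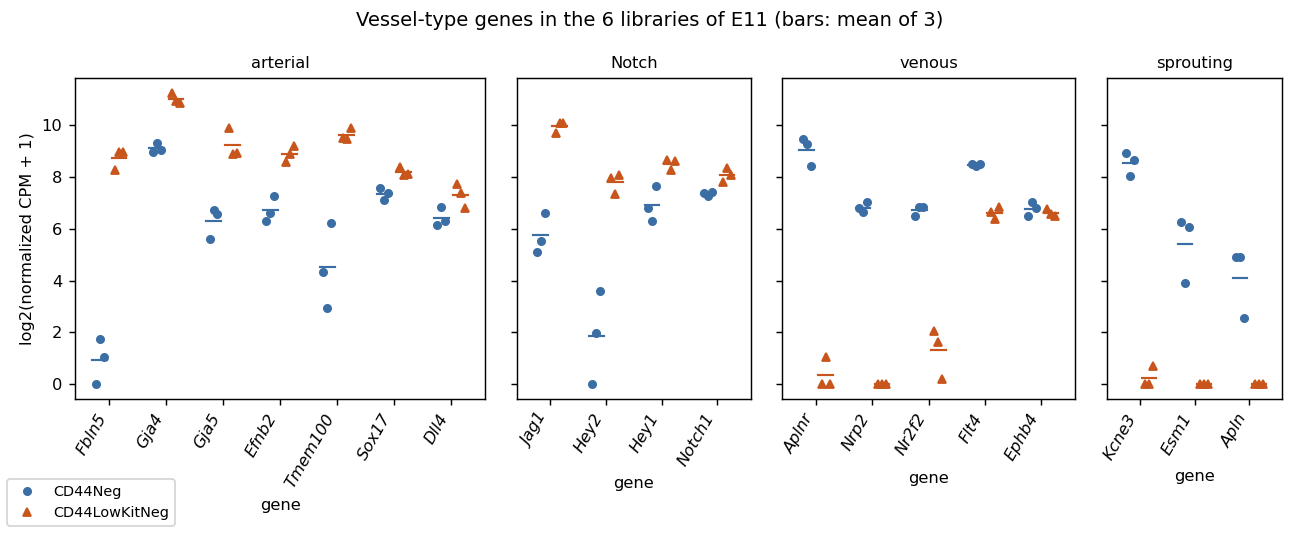
Level of vessel-type genes in each of the 6 libraries, as log2 of normalized CPM plus 1, for arterial, Notch, venous and sprouting genes (bars mark the mean of 3 libraries). CD44LowKitNeg (triangles) lay above CD44Neg (circles) in all arterial genes drawn but *Dll4*, whose libraries overlapped, and at or near 0 for *Aplnr*, *Nrp2*, *Nr2f2*, *Kcne3*, *Esm1* and *Apln*.

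Of 10 genes of sprouting vessel tips tested, 2 fell and none rose (median log2 fold change -1.6). *Kcne3*, a potassium channel subunit, was at 490, 263 and 399 CPM in CD44Neg and at 0, 0 and 0.638 in CD44LowKitNeg (log2 fold change -10.82 ± 0.67, edgeR adjusted p = 1.2e-04). *Esm1*, which codes for endocan, was at 76.1, 13.8 and 65.4 against 0 in all 3, at least 120-fold lower (adjusted p = 0.003). *Apln*, the gene of apelin, had the values 28.9, 28.7 and 4.89 against 0 in all 3, and its adjusted p of 0.0103 was just outside the threshold. So ligand and receptor of the apelin pair were both at or near 0 in CD44LowKitNeg, with *Aplnr* past the test and *Apln* not. *Esm1* was not called without CD44Neg replicate 1 or 3 (adjusted p = 0.0207 and 0.0155), and by limma voom neither *Kcne3* (0.0173) nor *Esm1* (0.0675) was. Among 9 flow-responsive genes 1 rose, *Edn1*, the gene of the vasoconstrictor endothelin-1, from 32.3, 57.1 and 49.8 CPM to 316, 223 and 459 (log2 fold change 2.84 ± 0.32, adjusted p = 0.00128, but 0.078 with all 22 libraries in the fit). *Klf2* and *Klf4*, transcription factors induced by shear, overlapped between the groups (log2 fold changes 0.77 and 1.31), and *Nos3*, endothelial nitric oxide synthase, had an adjusted p of 0.0363.

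In the Notch pathway a ligand and a target rose, 2 of 20 genes tested, with none lower and a median log2 fold change of 0.90. *Jag1* was at 33.1, 45.0 and 97.6 CPM in CD44Neg and at 833, 1095 and 1084 in CD44LowKitNeg, a 17.1-fold rise (log2 fold change 4.09 ± 0.39, edgeR adjusted p = 4.7e-04) called in every alternative. *Hey2* rose from 0, 2.88 and 11.2 to 249, 162 and 270 CPM (log2 fold change 5.50 ± 0.85, adjusted p = 0.00494). Without CD44Neg replicate 2 or any 1 of the CD44LowKitNeg libraries *Hey2* was not called, with adjusted p from 0.0114 to 0.035, nor was it by limma voom (0.0324). The ligand *Dll4* overlapped between the groups at 69.8, 113 and 78.8 CPM against 210, 165 and 111. *Hey1* (111, 77.3 and 201 against 401, 309 and 389), *Notch1* (165, 153 and 171 against 223, 327 and 269) and *Notch4* (32.6, 19.8 and 34.1 against 73.5, 58.6 and 75.5) did not overlap but had adjusted p of 0.0209, 0.0407 and 0.0424. *Hey1* and *Notch1* were called by DESeq2's Wald test, and *Hey1* also by limma voom and with the 16 endothelial libraries in the fit. *Hes1*, another target, overlapped.

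The promoter sequences of a gene that rose and of one that fell to 0 are shown to set the Notch motif beside them. They are the bases before the transcript start of *Hey2* (chr10:30842802-30843033, minus strand) and *Nrp2* (chr1:62703067-62703284, plus strand) in RefSeq on GRCm38.p6, read 5′ to 3′. Capitals mark TGGGAA, a core of the site that the Notch partner RBPJ binds, or its reverse complement TTCCCA.
Hey2: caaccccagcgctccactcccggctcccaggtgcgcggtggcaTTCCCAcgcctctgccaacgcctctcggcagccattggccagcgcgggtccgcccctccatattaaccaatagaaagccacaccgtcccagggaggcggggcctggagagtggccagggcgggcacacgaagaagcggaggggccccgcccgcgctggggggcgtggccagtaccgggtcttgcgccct
Nrp2: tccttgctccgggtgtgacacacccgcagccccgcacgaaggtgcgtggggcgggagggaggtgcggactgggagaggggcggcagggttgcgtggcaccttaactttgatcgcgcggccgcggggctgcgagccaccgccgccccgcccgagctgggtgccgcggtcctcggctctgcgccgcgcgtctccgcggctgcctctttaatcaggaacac
The *Hey2* window holds 1 match and the *Nrp2* window none. On either strand, TGGGAA was found in 20.4% of the 250-base windows of all genes tested, in 19.2% of those of genes called higher and in 20.7% of those of genes called lower, so the letters were about as frequent in each.

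Components of BMP and TGF-beta signalling rose, 6 of 31 tested with none lower (median log2 fold change 1.06). *Bmpr1a*, a type I BMP receptor, was at 0, 0.192 and 0 CPM in CD44Neg, a single read in 3 libraries, and at 96.5, 88.9 and 98.6 in CD44LowKitNeg. The ratio was 1472 with a 95% counting interval of 264 to 58150 (edgeR adjusted p = 1.2e-04). *Bmp6*, a ligand, and *Bmper*, a secreted BMP-binding protein, had no count in CD44Neg and were at 23.8, 24.9 and 52.3 CPM and at 59.6, 17.2 and 34.8 in CD44LowKitNeg, at least 55.7-fold and 61.5-fold higher (adjusted p = 0.00276 and 0.00302). *Ltbp1* and *Ltbp4*, which code for proteins that hold latent TGF-beta in the matrix, rose from 2.34, 1.92 and 6.26 to 244, 207 and 206 CPM and from 17.7, 29.6 and 52.2 to 481, 516 and 480. *Fstl1*, a secreted follistatin-like protein, rose 4.39-fold from 441, 481 and 534 CPM to 2356, 2155 and 1887 (log2 fold change 2.14 ± 0.14). The inhibitory Smads did not overlap between the groups but did not pass the edgeR test. *Smad6* was at 3.91, 2.69 and 23.8 against 59.6, 115 and 104 (adjusted p = 0.0302), and *Smad7* at 18, 11.5 and 41.4 against 56.7, 131 and 83.1 (adjusted p = 0.0438). Both were called by DESeq2's Wald test, and *Smad6* also with no filter, with 10 counts asked of each library and without CD44Neg replicate 3. The receptor genes *Acvrl1*, *Eng* and *Tgfbr2* overlapped. The ligand *Bmp4* was at 39.9, 78.3 and 24.7 CPM against 24.7, 15.3 and 9.41, with an adjusted p of 0.119. Leaving out CD44Neg replicate 1 or 2, or CD44LowKitNeg replicate 13, left 4 members called.

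Of 16 WNT pathway genes, 1 rose, *Ctnnb1*, which codes for beta-catenin, from 485, 756 and 654 CPM to 1364, 1356 and 1464 (log2 fold change 1.14 ± 0.17, edgeR adjusted p = 0.0042). The median of the list was 0.40, and *Ctnnb1* was not called when any 1 of the 6 libraries was left out (adjusted p from 0.0106 to 0.0196) or with all 22 libraries in the fit (0.0193). The study names some WNT targets, from a Wald test across its stages. In these 6 libraries they lay the other way without passing the edgeR test. *Ccnd1* was at 194, 175 and 123 CPM against 3.86, 29.2 and 4.79 (adjusted p = 0.0135), *Myc* at 115, 106 and 112 against 40.1, 27.2 and 13.4 (0.0124), and *Lef1* at 40.6, 30.4 and 23.2 against 3.44, 6.24 and 2.39 (0.0202). In none of these 3 did the groups overlap. All 3 were called by DESeq2's Wald test, with the 16 endothelial libraries in the fit and with all 22.

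Many genes of the extracellular matrix rose. Of 13 elastic fibre and fibronectin matrix genes tested 6 rose, all 13 had a fitted log2 fold change above 0, and the median was 3.52. *Fn1*, the gene of fibronectin, was at 214, 227 and 394 CPM in CD44Neg and at 2942, 3264 and 3352 in CD44LowKitNeg, an 11.5-fold rise (log2 fold change 3.52 ± 0.24, edgeR adjusted p = 1.2e-04). *Fbn1*, which codes for the microfibril protein fibrillin-1, rose 23.2-fold from 16.1, 27.1 and 61.7 to 783, 876 and 781 CPM (adjusted p = 5.5e-04). *Fbn2* and *Mfap2*, of the same microfibrils, rose by 1.84 and 2.26 on the log2 scale. *Eln*, the gene of elastin, was at 0, 0 and 2.90 CPM against 48.6, 88.5 and 128 (adjusted p = 0.00688). *Lox*, the enzyme that crosslinks elastin and collagen, had no count in CD44Neg and was at 64.2, 44.6 and 22.7 in CD44LowKitNeg, at least 72.3-fold higher (adjusted p = 0.00209). With *Fbln5* above, elastin, a protein of its assembly and its crosslinking enzyme were thus at or near 0 in CD44Neg and present in every CD44LowKitNeg library. Without CD44Neg replicate 1 the count was 4, and *Eln* was not called when any library but CD44Neg replicate 3 was left out (adjusted p from 0.0105 to 0.029). With all 22 libraries in the fit *Lox* (0.0237), *Mfap2* (0.0539), *Fbn2* (0.0309) and *Eln* (0.0232) were not called, which left 2, and by limma voom *Lox* (0.0331) and *Eln* (0.0749) were not.

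Basement membrane genes rose in 4 of 13 tested (median log2 fold change 1.0). *Lama3*, a laminin chain, was at 4.43, 2.12 and 0.611 CPM against 164, 204 and 246 (log2 fold change 6.52 ± 0.56, edgeR adjusted p = 3.3e-04). *Col4a2* and *Col18a1*, collagen chains, and *Agrn*, the heparan sulfate proteoglycan agrin, rose by 2.22-fold, 2.59-fold and 3.46-fold. *Col4a1* missed the threshold (adjusted p = 0.0236), and without CD44Neg replicate 1 or 2, or with all 22 libraries in the fit, only 1 member was called. *Htra1*, a secreted serine protease, was chosen after its values were seen, since it had the smallest adjusted p of all genes. It was at 3.39, 4.42 and 2.29 CPM in CD44Neg and at 333, 355 and 366 in CD44LowKitNeg (104-fold, log2 fold change 6.71 ± 0.29, adjusted p = 2.0e-05).

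The hyaluronan list is the one that CD44 joins to the sort, so *Cd44* in it is no finding. Besides *Cd44*, 2 of the other 6 genes tested rose (median log2 fold change 2.12 with *Cd44* in the list). *Has2*, the hyaluronan synthase, had no count in CD44Neg and was at 25.1, 50.0 and 23.9 CPM in CD44LowKitNeg, at least 54.5-fold higher (edgeR adjusted p = 0.00274). *Tmem2*, which codes for a cell surface hyaluronidase, rose 4.35-fold from 105, 107 and 186 CPM to 620, 603 and 508 (adjusted p = 0.00146). The list thus has a gene for making hyaluronan and one for cutting it among those that rose. *Has2* was not called without CD44Neg replicate 1 or 2 or CD44LowKitNeg replicate 12 (adjusted p = 0.0108, 0.0113 and 0.0143), nor *Tmem2* without CD44Neg replicate 1 or 2 (0.0104 and 0.0113).

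Contractile and actin-binding genes split. Of 17 tested 3 rose and 2 fell (median log2 fold change 0.08). The smooth muscle genes *Acta2* and *Tagln* were at 0.26, 2.12 and 0 CPM against 90.6, 132 and 78.8, and at 0, 0.769 and 0 against 57.6, 65.8 and 16.4 (edgeR adjusted p = 0.00206 and 0.00494). *Cald1*, caldesmon, rose 3.01-fold. *Tpm4*, a tropomyosin of the non-muscle cytoskeleton, fell from 1867, 1755 and 1695 to 608, 710 and 598 CPM (log2 fold change -1.47 ± 0.13, adjusted p = 3.4e-04), and *Cnn2*, calponin 2, fell 1.75-fold. None of the 3 rises was called without CD44Neg replicate 1 (*Acta2* 0.0146, *Tagln* 0.0273, *Cald1* 0.023), and *Cnn2* was not called when any 1 library was left out. By limma voom *Acta2* and *Tagln* had adjusted p of 0.0337 and 0.0996. *Myh11*, the defining heavy chain of mature smooth muscle, was at 0 or too low to test, and *Cnn1* stayed at 3.31, 3.05 and 1.6 CPM in CD44LowKitNeg and 0 in CD44Neg. *Actg2*, in both the contractile and the mural list, was at 0 in CD44Neg and at 38.1, 4.64 and 5.9 CPM in CD44LowKitNeg (edgeR adjusted p = 0.0227). The mesenchyme marker sum (above) was higher in CD44LowKitNeg, as were *Acta2* and *Tagln*. The mural sums (above) overlapped between the groups, with members in both directions (*Abcc9* at 27.6, 3.85 and 13.3 CPM against 0, 0 and 9.25). The part of such cells was not tested. Outside the list, *Actb*, chosen after its values were seen, fell 1.96-fold from 13061, 13102 and 12269 CPM to 6875, 6839 and 5937 (adjusted p = 4.3e-04, but 0.0185 with all 22 libraries in the fit), and reads of its processed pseudogenes may be counted with it.

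**Figure D3:**
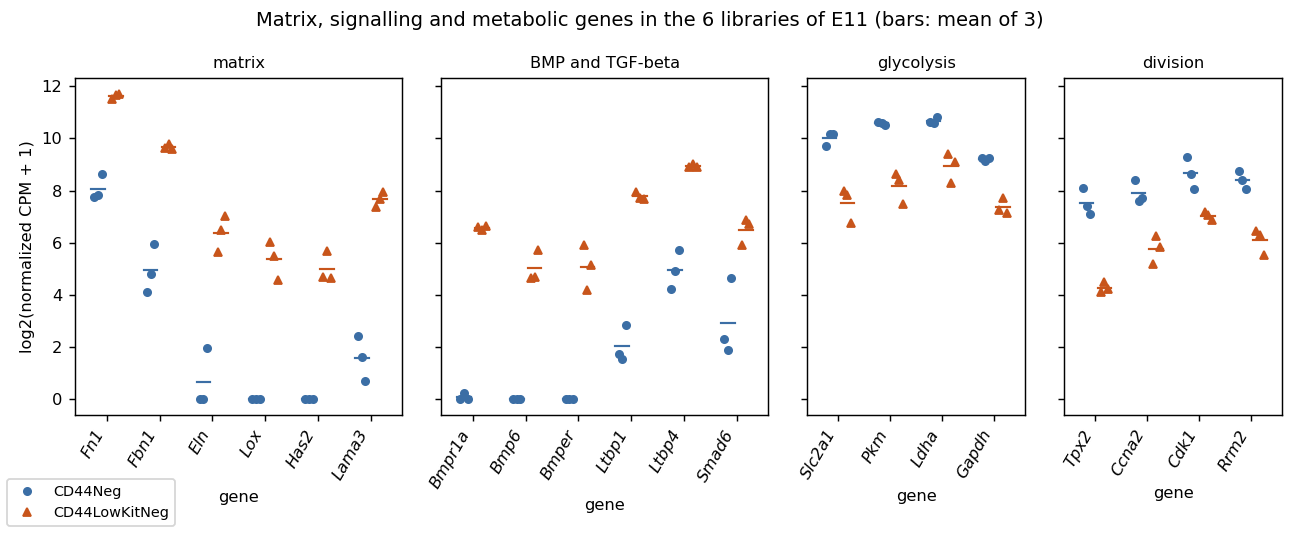
Level of matrix, BMP and TGF-beta, glycolysis and division genes in each of the 6 libraries, as log2 of normalized CPM plus 1 (bars mark the mean of 3 libraries). CD44LowKitNeg (triangles) lay above CD44Neg (circles) in every matrix and signalling gene drawn and below it in every glycolysis and division gene drawn.

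Some genes of the turn to blood were at or near 0 in both populations, while others had enough counts to be tested. *Runx1*, *Gfi1b* and *Mpo* had no count in any of the 6 libraries, *Ptprc*, the gene of CD45, had 1 library at 0.133 CPM, and *Gfi1* was at 0, 3.98 and 3.99 CPM in CD44LowKitNeg and 0 in CD44Neg. A count of 0 allows up to 0.398 to 0.781 CPM in a library, for counting error alone. Of 34 blood genes in the list, 14 were too low to test, and 5 of the 20 tested rose (median log2 fold change 1.80). These were *Procr*, the protein C receptor of both endothelium and stem cells, *Ctsc*, a protease of lysosomes, *Laptm5*, a lysosomal membrane protein, *Ikzf2*, Helios, and *Lyl1*, a bHLH factor that endothelium also expresses. *Procr* was at 21.6, 26.3 and 12.7 CPM against 235, 110 and 159 (log2 fold change 3.06 ± 0.39, edgeR adjusted p = 0.00212). *Ikzf2* had 0, 0 and 0.305 CPM in CD44Neg and 22.0, 42.1 and 36.9 in CD44LowKitNeg, a ratio of 262 with a counting interval of 72.2 to 2167 (adjusted p = 0.00248). *Lyl1* was at 56.0, 80.4 and 51.0 against 234, 162 and 181. The stem cell factors *Gata2*, *Lmo2* and *Tal1* did not overlap between the groups, with edgeR adjusted p of 0.0415, 0.0186 and 0.167. *Gata2* and *Lmo2* were called by DESeq2's Wald test. *Spi1*, *Adgrg1*, *Hlf*, *Nfe2* and *Ifitm1* were fitted at 7.08, 3.03, 2.84, 2.71 and 2.03 on the log2 scale and did not pass. Of the 20 tested, 17 were fitted higher and 3 lower. *Procr* was not called with 16 libraries in the fit (edgeR adjusted p = 0.0122) or all 22 (0.0246). *Ikzf2* was not called by limma voom (0.0318), nor *Lyl1* when any 1 library was left out. Without CD44Neg replicate 2 only 1 of the list was called.

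Glycolysis was the list with the most genes lower. Of 21 tested 10 fell and none rose (median log2 fold change -1.47). *Slc2a1*, the glucose transporter GLUT1, fell from 837, 1148 and 1164 CPM to 251, 229 and 107 (log2 fold change -2.42 ± 0.31, edgeR adjusted p = 0.00211). *Pkm*, pyruvate kinase, fell 5.01-fold from 1585, 1530 and 1474 to 397, 338 and 179 (adjusted p = 0.0012). *Ldha*, lactate dehydrogenase, fell from 1598, 1546 and 1790 to 672, 311 and 545 (adjusted p = 0.00391). In these 3 genes even the highest CD44LowKitNeg library lay far under the lowest CD44Neg library. *Gapdh*, often used as a reference gene, fell 3.51-fold from 600, 554 and 607 CPM to 152, 210 and 139 (adjusted p = 8.2e-04). The enzymes *Aldoa*, *Gpi1*, *Pgk1*, *Pfkl* and *Pgam1* fell by 2.28-fold, 2.56-fold, 2.76-fold, 3.46-fold and 3.18-fold. *Hk2*, hexokinase 2, overlapped between the groups. Without CD44Neg replicate 1 or 3 the count was 3, and *Gapdh* and *Pkm* were called in every alternative. *Gapdh*, *Pgk1* and *Ldha* have processed pseudogenes, and how shared reads were counted is not given in the sources used here.

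The promoter of *Pgk1* is shown because it holds the letters ACGTG at 2 places. This is the core that hypoxia-inducible factors bind in many glycolytic genes. The window is chrX:106186850-106187099 on the plus strand of GRCm38.p6, from RefSeq, and capitals mark ACGTG or its reverse complement CACGT, and 1 TGGGAA.
Pgk1: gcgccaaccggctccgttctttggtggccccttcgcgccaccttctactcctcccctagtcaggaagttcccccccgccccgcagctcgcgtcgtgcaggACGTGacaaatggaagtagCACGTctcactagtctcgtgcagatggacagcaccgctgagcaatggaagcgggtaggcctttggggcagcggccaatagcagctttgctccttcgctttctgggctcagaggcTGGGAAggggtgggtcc
ACGTG stood on either strand in 7 of the 14 windows (50.0%) of the glycolysis genes that fell, windows of *Aldoa*, *Ldha*, *Pgam1*, *Pgk1*, *Pkm* and *Slc2a1*. It stood in 43.8% of the windows of all glycolysis genes tested, in 22.3% of the windows of all genes tested, in 32.8% of those of genes called lower and in 15.2% of those of genes called higher. Windows of 1 gene can overlap, and a match is a run of letters, not a site shown to be bound.

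Fewer mitochondrial genes passed the test. In the TCA cycle 3 of 22 fell, among them *Mdh2* and *Idh2* by 2.10-fold and 1.92-fold, and all 22 had a fitted log2 fold change below 0 (median -0.63). In the respiratory chain 3 of 70 fell (median -0.39), among them *Atp5b* and *Atp5a1* of ATP synthase. *Atp5b* was at 2095, 1957 and 1927 CPM in CD44Neg and at 998, 728 and 787 in CD44LowKitNeg (log2 fold change -1.25 ± 0.14, edgeR adjusted p = 0.00139). Of 26 genes for making amino acids and nucleotides 2 fell (median -1.28), *Mthfd1*, an enzyme of folate metabolism, from 80.7, 72.3 and 45.2 CPM to 11, 11.5 and 7.02, and *Impdh2*, of guanine nucleotide synthesis, by 2.78-fold. *Phgdh*, of serine synthesis, was at 49.5, 27.1 and 17.6 CPM against 4.54, 1.46 and 1.91 with an adjusted p of 0.0185. Each of these 3 lists had no call left without CD44Neg replicate 1 or without CD44Neg replicate 2.

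Every division gene tested was fitted lower in CD44LowKitNeg, but few single genes passed the test. Of 29 mitosis genes 5 fell, and all 29 had a fitted log2 fold change below 0 (median -1.76). *Tpx2*, a spindle assembly factor, fell from 271, 169 and 135 CPM to 16.3, 21.6 and 18 (log2 fold change -3.36 ± 0.32, edgeR adjusted p = 5.1e-04) and was called in every alternative. *Ccna2*, cyclin A2, fell from 338, 195 and 208 to 35.0, 75.2 and 56.5 CPM, and *Cdk1*, the mitotic kinase, from 619, 395 and 268 to 144, 133 and 115 (adjusted p = 0.00494 and 0.00718). In these genes CD44Neg replicate 1 was the highest library. *Birc5* and *Cdc20*, a chromosomal passenger and an activator of the anaphase complex, fell 6.71-fold and 9.83-fold. Of 43 replication genes 3 fell, *Rrm2*, *Fen1* and *Mcm5*, and all 43 were fitted below 0 (median -1.14). *Rrm2*, a subunit of ribonucleotide reductase, was at 432, 338 and 266 CPM against 86.6, 77.2 and 45.0 (adjusted p = 0.00211). None of the 15 cell cycle inhibitors and D cyclins tested passed (median 0.51). The D cyclins of that list were *Ccnd2* and *Ccnd3* (-0.04 and -0.43 on the log2 scale). *Ccnd1*, given above with the WNT genes, was fitted at -3.69 (edgeR adjusted p = 0.0135). Without CD44Neg replicate 1 or 2, 1 mitosis gene and no replication gene was called.

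Genes for making ribosomes lay lower as well. Of 22 nucleolar genes of ribosome biogenesis 4 fell, *Nhp2*, *Nop56*, *Npm1* and *Ncl* (median log2 fold change of the list -1.07). *Nop56*, a core protein of box C/D particles, was at 392, 321 and 304 CPM against 108, 71.6 and 51.9 (edgeR adjusted p = 0.00248). *Npm1*, nucleophosmin, was at 2147, 2147 and 2154 against 1005, 1208 and 1284 (adjusted p = 0.00333). Of 77 ribosomal protein genes 7 fell, by 1.67-fold (*Rpl4*) to 2.47-fold (*Rps2*), and 75 were fitted below 0 (median -0.48). *Rps2* was at 2032, 2140 and 1691 CPM in CD44Neg and at 806, 827 and 737 in CD44LowKitNeg (log2 fold change -1.31 ± 0.13, adjusted p = 6.8e-04). These genes have many processed pseudogenes, which makes their counts uncertain. Without CD44Neg replicate 1, no nucleolar gene and 1 ribosomal protein gene was called.

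Among lysosome genes 3 of 25 rose (median log2 fold change 0.58). *Ctsh*, cathepsin H, rose 10.1-fold from 51.8, 86.5 and 96.8 CPM to 1024, 588 and 761 (log2 fold change 3.33 ± 0.29, edgeR adjusted p = 3.6e-04), *Ctsl*, cathepsin L, 3.19-fold from 392, 353 and 498 to 1433, 1308 and 1230, and *Lipa*, the acid lipase, 4.09-fold. The cathepsins were called in every alternative, while *Lipa* was not called when CD44Neg replicate 1, 2 or 3 was left out (0.034, 0.0332 and 0.012) or CD44LowKitNeg replicate 13 (0.0114). In autophagy 1 of 32 rose, *Rb1cc1*, a scaffold of the ULK complex (3.16-fold, adjusted p = 0.00682), against a list median of 0.14, and it was not called when any 1 of the 6 libraries was left out. In sphingolipid metabolism 1 of 22 rose, *Acer2*, a ceramidase (5.37-fold, adjusted p = 0.00255), with a median of 0.31. *Acer2* was not called without CD44Neg replicate 1 (0.0184), CD44Neg replicate 2 (0.0182) or CD44LowKitNeg replicate 13 (0.0103), or with all 22 libraries (0.0201). Of 17 immediate-early and heat shock genes 2 fell, the chaperones *Hspa8* and *Hsp90aa1*, by 1.93-fold and 2.01-fold (median -0.19), and neither was called without CD44Neg replicate 1 (adjusted p = 0.0201 and 0.0271), without CD44Neg replicate 2, without CD44LowKitNeg replicate 13 or with all 22 libraries. *Fos* was at 36.5, 14.2 and 15.4 CPM against 173, 69.8 and 203, with an adjusted p of 0.0101.

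Imprinted growth genes moved both ways, 3 of 12 higher and 1 lower (median log2 fold change 0.67). *Igf2*, the fetal growth factor, rose from 1553, 1330 and 2027 CPM to 4177, 5319 and 4925 (log2 fold change 1.55 ± 0.17, edgeR adjusted p = 8.8e-04). The neighbouring *H19* RNA rose from 534, 598 and 743 to 1726, 3025 and 2778 (adjusted p = 0.00102), and *Plagl1*, a zinc finger factor, rose 3.12-fold. *Mest*, expressed from the paternal allele, fell from 6759, 6617 and 6417 to 2101, 1127 and 1651 (log2 fold change -2.02 ± 0.20, adjusted p = 5.7e-04). When CD44Neg replicate 1 was left out, none of the 3 rises was called (adjusted p = 0.0104 for *Igf2*, 0.0102 for *H19* and 0.0264 for *Plagl1*). With all 22 libraries in the fit *Igf2* (adjusted p = 0.221), *Plagl1* (0.241) and *Mest* (0.154) were not called.

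**Figure D4:**
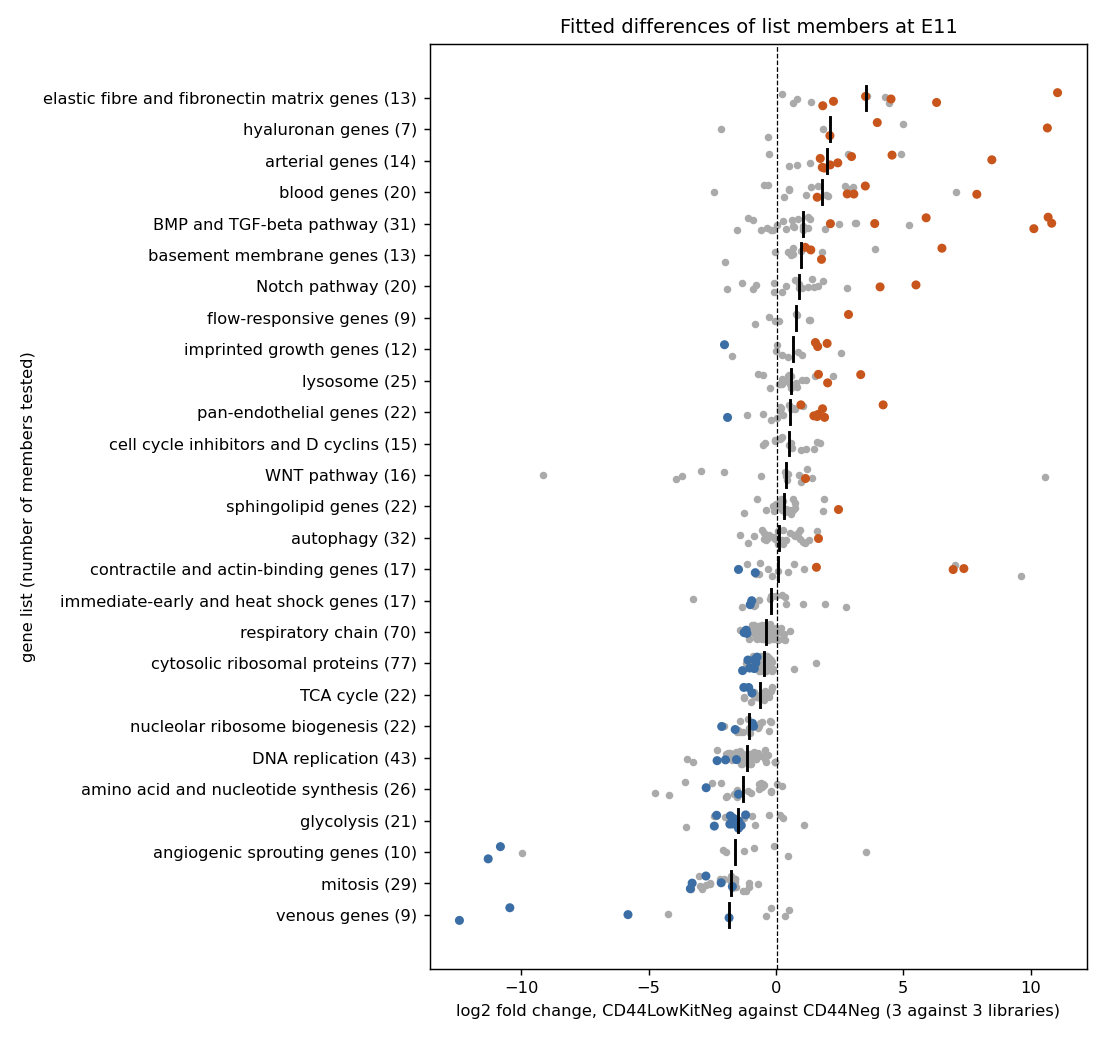
Log2 fold change at E11 of every gene tested in each of the 27 gene lists (marker lists of other cell types are not drawn), 1 point a gene, with the median of the list as a bar and genes called at an adjusted p under 0.01 in colour. Medians ran from -1.84 in the venous list and -1.76 in mitosis to 2.01 in the arterial list, 2.12 in the hyaluronan list and 3.52 in the elastic fibre and fibronectin matrix list, against 0.03 over all genes tested.

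Outside or across these lists, the 10 largest rises and falls were taken by fitted log2 fold change. That order depends on the prior count wherever a population had no count, and it is not an order of true size: *Bmpr1a* and *Aplnr*, with some reads in the lower population, lay outside it. The 10 rises had no count in CD44Neg. *Cfi*, which codes for complement factor I, was at 118, 101 and 77.2 CPM in CD44LowKitNeg, at least 163-fold higher (edgeR adjusted p = 2.5e-04). *Efemp1*, a fibulin of the matrix, was at 124, 47.9 and 51.2 CPM, at least 123-fold higher, and *Syt15*, a synaptotagmin, at 95, 79.5 and 41.3, at least 119-fold. *Lypd6*, *Mgp* and *Cytl1* were at least 70.8-fold, 66.4-fold and 63.1-fold higher, and *Lox*, *Bmper*, *Bmp6* and *Has2* are described above. *Mgp* codes for the matrix Gla protein, which binds BMPs and blocks calcification of arteries. *Cytl1*, at 18.9, 80.3 and 15.5 CPM, was not called when any 1 of the 6 libraries was left out (adjusted p from 0.0104 to 0.0269), and CD44LowKitNeg replicate 12 carried most of its level. By limma voom *Cfi* was the only one of the 10 rises still called, the others having adjusted p from 0.0246 (*Syt15*) to 0.0853 (*Cytl1*). Among the 10 falls *Pde2a*, a phosphodiesterase of cyclic nucleotides, was at 201, 157 and 214 CPM in CD44Neg and 0 in all 3 CD44LowKitNeg libraries, at least 443-fold lower (adjusted p = 1.2e-04). *Tgfbi*, a matrix protein induced by TGF-beta, was at 94.3, 138 and 91.2 against 0 in all 3, and *Samsn1*, an adaptor protein, at 103, 104 and 92.3 against 0, at least 251-fold and 233-fold lower. *Lepr*, the leptin receptor, *Gatm*, of creatine synthesis, *Prl3b1*, of the prolactin family, and *Reep1* had no count in CD44LowKitNeg either. These 4 were not called by voom (adjusted p = 0.0623, 0.0219, 0.0264 and 0.0149) or without CD44Neg replicate 1, and each was also lost without other single libraries. *Prl3b1* belongs to a family of similar genes, so its counts are uncertain. Of the other genes the study names, *Adgrg6*, an adhesion receptor, rose 13.1-fold from 3.13, 18.7 and 9.16 CPM to 184, 106 and 116 (adjusted p = 0.00489), but was not called by limma voom (0.0124) or when any library but CD44Neg replicate 2 was left out (0.0105 to 0.0269). *Pde3a*, another phosphodiesterase, was at 3.13, 0 and 4.28 against 74.1, 47.8 and 53.9. *Sox6* was at 0, 3.65 and 5.50 against 76.0, 52.0 and 56.5. Neither passed (edgeR adjusted p = 0.0172 and 0.0179), but both were called by DESeq2's Wald test and with no filter.

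Whether the difference at E11 was itself different from that at E9.5 and E10 was asked of the 16 libraries of the 2 populations, 10 of them earlier (7 CD44Neg and 3 CD44LowKitNeg), by testing the interaction of population with E11. Of 12719 genes 25 passed (0.197%), 5 with a difference more positive at E11 (0.0393%) and 20 more negative (0.157%). Stage and label date cannot be told apart in it. *Pde2a* in CD44Neg had medians of 81.6, 191 and 205 CPM at E9.5, E10 and E11, while CD44LowKitNeg had 7.45 at E9.5, 9.19 at E10 and 0 in every library at E11 (interaction -9.19 ± 0.77 on the log2 scale, edgeR adjusted p = 2.7e-05). CD44Neg was thus higher, and CD44LowKitNeg lower, at E11 than at E9.5. *Nrp2* had a like course, with CD44LowKitNeg at 6.62, then 2.90, then 0 CPM, and CD44Neg at 39.7, 102 and 113 (adjusted p = 0.0022). *Gatm*, of creatine synthesis, had no such gap earlier: CD44LowKitNeg was at 67.3 CPM at E9.5 (CD44Neg 21.3 to 50.7), at 11.5 and 27.7 at E10 (CD44Neg 13.4 to 18.7), and at 0 at E11 (CD44Neg 20.3 to 52.9) (adjusted p = 6.4e-05). *Mycn*, a MYC family factor, had medians of 97.0, 124 and 4.70 CPM in CD44LowKitNeg and 65.5, 43.3 and 41.2 in CD44Neg (interaction -3.86 ± 0.54, edgeR adjusted p = 0.00167). By limma voom the interaction was not called for *Nrp2* or *Mycn*.

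On the positive side, *Ecm1*, an extracellular matrix protein, was level between the populations early (medians of 152 and 150 CPM in CD44LowKitNeg, 153 and 125 in CD44Neg) and at 614 against 132 at E11 (interaction 2.27 ± 0.30, edgeR adjusted p = 9.3e-04). *Ramp2* went from 383 against 352 CPM at E9.5 and 539 against 360 at E10 to 1799 against 548 at E11 (adjusted p = 0.00559). *Bmpr1a* had medians of 44.0, 38.1 and 97.8 CPM in CD44LowKitNeg, while CD44Neg went from 22.2 over 4.58 to 0 (adjusted p = 9.3e-04). So its difference grew from both sides. *Dock6* and *Emilin1* were lower in CD44LowKitNeg at the earlier stages and at higher levels at E11, but at E11 alone neither passed (edgeR adjusted p = 0.0659 and 0.0827). Of 21 alternatives, the interaction was not called in 15 for *Emilin1*, 10 for *Ramp2* and 8 for *Dock6*. The interaction passed in 1 of 29 mitosis genes and 0 of 43 replication genes. This mitosis gene was *Tpx2*, at 307, 88.9 and 18.3 CPM in CD44LowKitNeg and at 191, 164 and 173 in CD44Neg (edgeR interaction adjusted p = 0.00341, not called by limma voom). *Sgol1*, *Smc4* and *Cks1b*, which also act in cell division, are in neither list. They passed too, with more negative differences at E11 (edgeR interaction adjusted p = 0.00167, 0.00235 and 0.00957). *Cks1b* was not called in 15 of 21 alternatives.

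For *Fbln5* and *Tgfbi* the fit gave an interaction whose standard error far exceeded its estimate (3.65 ± 18.27 for *Fbln5*), so only their levels are described. *Fbln5* had no count in any of the 7 earlier CD44Neg libraries, was at 0 to 3.13 CPM in the 3 earlier CD44LowKitNeg libraries, and was at 307 to 510 in the 3 of E11. *Cfi* was at 0 to 4.35 CPM in the earlier CD44LowKitNeg libraries and at 78.4 to 120 at E11 (interaction 6.46 ± 3.25, adjusted p = 0.455). *Tgfbi* was at 0 in CD44LowKitNeg at all stages and at 0 to 5.85, 4.18 to 39.9 and 92.6 to 141 CPM in CD44Neg at E9.5, E10 and E11. The earlier CD44LowKitNeg group is 1 library at E9.5 and 2 at E10, so the interaction rests on few libraries. It gave 13 genes without CD44LowKitNeg replicate 14, the only one of E9.5, 16 without CD44Neg replicate 2, 41 without CD44LowKitNeg replicate 12, and 1 gene with the libraries of E10 and E11 alone. *Pde2a* was the gene called in each of these.

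**Figure D5:**
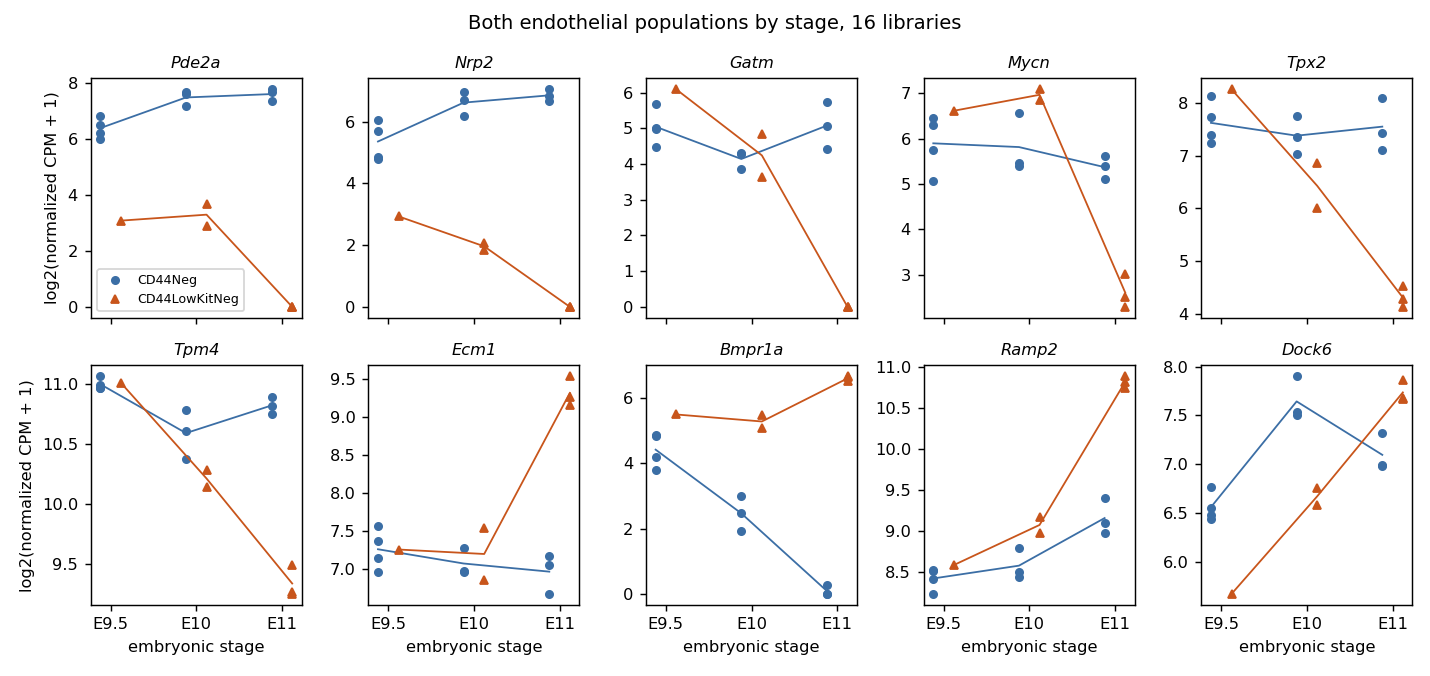
Level of selected genes in the 16 endothelial libraries by stage (E9.5, E10 and E11), as log2 of normalized CPM plus 1, with 1 point a library and lines through the means of the log values. Each gene has its own y range. *Pde2a* and *Nrp2* in CD44LowKitNeg reach 0 in all 3 libraries of E11, while *Ecm1* and *Ramp2* in CD44LowKitNeg are above all other libraries there.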

How the data were processed

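VE-Cadherin-positive AGM cells were sorted by CD44 and Kit, and 25-cell pools were sequenced after Smart-seq2. The authors deposited raw counts per gene symbol for 24454 symbols, 1 column a library, and 0 columns were without a sample. The submitters' processing notes name FastQC, HTSeq and the mm10 build. The annotation, the strand setting and the handling of reads shared between similar genes are not given in the sources used here. The reads were not tagged by molecule, so intervals and floors cover counting error only.

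Counts of the 6 E11 libraries were filtered (filterByExpr, count 10, total 15), scaled by TMM and tested by edgeR 4.0.16 with the quasi-likelihood test in R 4.3.3, with Benjamini-Hochberg adjustment over all genes tested and a threshold of 0.01. Fitted values of genes at 0 in a population depend on a prior count of 0.125, so bounds against 3 counts per library are given for them. Standard errors were taken from the F statistic. The interaction fit held stage, population and population at E11 over 16 libraries, and levels by stage are scaled over those 16. The scripts were tested on simulated data.

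The members and the 27 gene lists and 8 marker lists were chosen with earlier results of these data known. Named genes were the sorting markers, the 10 largest rises and 10 largest falls among called genes of at least 10 CPM without overlap, up to 6 members of a list by adjusted p with any needed to account for it, the 5 smallest adjusted p of the interaction in each direction, and genes the study names. Pairs of replicates differed beyond sampling noise (chi-square per degree of freedom 17 to 52.5), so none was counted as a duplicate. Promoters are the 250 bases before RefSeq starts (32851 windows, GRCm38.p6), printed only up to the first annotated start. Of the called genes, 152 of 208 and 127 of 168 had a window. Alternatives were other scalings, filters and fits, DESeq2 1.42.0, limma 3.58.1 voom, thinning, and leaving out libraries. Some list members that passed the test are not reported here by name.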

Additional observations from a re-analysis of the deposited data

Results flagged for a closer look

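In 25 genes the difference between CD44LowKitNeg and CD44Neg at E11 differed from that at the earlier stages, by the interaction test of edgeR over 16 libraries. They are given as values. The adjusted p was 2.7e-05 for *Pde2a*, 6.4e-05 for *Gatm*, 1.7e-04 for *Rps6ka6* and 9.3e-04 for *Gem*, *Ecm1* and *Bmpr1a*. It was 0.00167 for *Mycn* and *Sgol1*, 0.00196 for *Tpm4* and *Ndc1*, 0.0022 for *Lbr* and *Nrp2*, and 0.00235 for *Dnph1*, *Mmrn1* and *Smc4*. It was 0.00341 for *Tpx2*, 0.00404 for *Ran*, 0.00419 for *Dld*, 0.00442 for *2010204K13Rik*, 0.00522 for *Dock6* and 0.00559 for *Ramp2*. It was 0.00848 for *Ctla2b*, 0.00883 for *Eda2r* and *Emilin1* and 0.00957 for *Cks1b*. The difference was more positive at E11 in *Ecm1*, *Bmpr1a*, *Dock6*, *Ramp2* and *Emilin1* and more negative in the other 20. At E11 alone 16 of the 25 were called, and 11 had fitted differences of unlike sign at E11 and earlier. In 9 of the 20, CD44LowKitNeg had no count at E11, where the fitted size rests on the prior count. Only *Pde2a* was called in all 21 alternatives. *Ctla2b* was not called in 16 of them, and *Eda2r*, *Emilin1* and *Cks1b* in 15 each.

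*Rps6ka6*, which codes for a kinase of the RSK family, was at 81.5 CPM in the CD44LowKitNeg library of E9.5, at 25.4 and 26.1 in those of E10 and at 0 in all 3 of E11. CD44Neg went from 26.6 to 46.6 at E9.5 to 8.37 to 18.1 at E11. *Gem*, a small GTPase, was at 6.86 CPM in CD44LowKitNeg at E9.5, at 8.35 and 13.2 at E10 and at 0 at E11, against 25.1 to 43.8 in CD44Neg at E11. *Mmrn1*, which codes for multimerin-1, was at 94.2, then at 103 and 136, and then at 13.4 to 34.7 in CD44LowKitNeg, while CD44Neg was at 217 to 545, 345 to 403 and 483 to 521.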

How the results depend on the processing

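Of 127 named genes called at E11, 29 were called in every alternative that gave a value for them, and none changed direction. Some named genes that did not pass were called in an alternative, among them *Smad6*, *Myc*, *Ccnd1* and *Lef1* by DESeq2's Wald test. With 10 counts asked of each library, 94 of the 127 had a value. The 376 calls (208 higher, 168 lower) became 688 (357 and 331) with no filter, 577 (304 and 273) when each library had to hold 10 counts or more of a gene, 1219 (629 and 590) with DESeq2's Wald test, 616 (233 and 383) with 16 libraries, 422 (126 and 296) with all 22 libraries, and 1206 (601 and 605) at a threshold of 0.05. Other scalings, voom, thinning and leaving out *Rn45s* gave 334 to 436. Leaving out 1 library gave 101 to 264 calls, with 71 to 134 higher and 30 to 130 lower. Of the 376, 267 were also called by voom and 245 with all 22 libraries. The 25 interaction calls became 1 with E10 and E11 only, 278 with no filter, 197 with DESeq2 and 98 at a threshold of 0.05, and 13 to 41 when 1 of the 16 libraries was left out. *Pecam1*, not called, had a log2 fold change of -0.02 without CD44LowKitNeg replicate 11 and up to 0.26 without CD44LowKitNeg replicate 13. Every library stayed nearest to its own population with the 500 most variable genes, a prior count of 0.5 and rank correlation. The cause of these changes was not tested. No paired analysis was possible because the replicate numbers run from 1 to 22 across groups and are shared by none. Genes that did not reach about 10 counts in at least 3 libraries were left out of the main test at E11. The size of the groups, 3 libraries of 25 cells each, limits what can be called.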
